A study of Homo sapiens with 4 samples.

Results

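The regions described here are CUT&RUN peaks of the chromatin remodeling ATPase BRG1 that touch protein-coding sequence inside genes, away from gene starts and from untranslated regions (UTRs). In CUT&RUN an antibody brings a nuclease to a chromatin protein, and the DNA fragments released around it are sequenced. A peak was taken when it overlapped at least 1 bp of the coding sequence (CDS) of a protein-coding transcript, overlapped no annotated UTR, and lay more than 1 kb from every annotated transcript start, with peaks inside SMARCA4, the gene of BRG1, set aside. Of 24212 peaks of wild-type BRG1, 605 met these criteria, and of 25371 peaks of BRG1 without its HSA domain, 573 did, together 1178 of 49583 peaks. They are called coding-exon peaks below.

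The cells were SW-13, an adrenocortical carcinoma line without BRG1 and its paralog BRM, stably carrying a doxycycline-inducible, V5-tagged BRG1 transgene. In iBRG1 cells the transgene was full-length, and in i∆HSA cells it lacked the helicase/SANT-associated (HSA) domain. Each construct was represented by an individual clone, so construct and clone cannot be told apart. All 4 samples, 2 biological replicates per construct, received doxycycline for 24 h, and 300000 cells per sample were bound with anti-V5, digested for 30 min on ice and amplified for 12 PCR cycles. The data hold 1 peak list per construct and no replicate column. The replicate error and the read depth behind each value are therefore unknown, and the intervals below are 95% intervals for counting error only (Wilson for a share, Newcombe for a difference of shares). Peaks are not replicates, and each comparison describes the lists. No interval was adjusted for the number of comparisons.

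BRG1 is the motor of SWI/SNF complexes, which slide or evict nucleosomes. Its HSA domain binds nuclear actin and actin-related proteins that assemble with the ATPase. SWI/SNF is best known at promoters and distal enhancers, often with AP-1 factors. Internal coding exons are short, lie between much longer introns, and are joined by splicing. A peak over one can lie in an enhancer inside the gene, most of whose sequence is intronic.

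The coding edge inside the strongest of these peaks is shown first, because it fixes where each peak sits in its gene. The windows below hold the end of an intron and the start of the exon most covered by the peak, 5′ to 3′ on the coding strand of GRCh37, with coding bases in capitals. Each intronic stretch ends in the splice acceptor dinucleotide ag.

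PGR, coding exon 3 of 8 (chr11:100962593-100962622, minus strand): attttgtttttttagGGCAGCACAACTACT
ACACA, coding exon 41 (chr17:35536333-35536362, minus strand): tcttttctccactagTCCCTGATCAAACTC
LAMB4, coding exon 31 (chr7:107671410-107671439, minus strand): ttaaatcaacaacagGCTGAAAATCAAACC
NFYB, coding exon 5 (chr12:104515085-104515114, minus strand): tttttccttcctcagGCTATGAAAGGAGAA
KCP, coding exon 24 (chr7:128529079-128529108, minus strand): tctcttctctgaaagGCTGTGAGTACCTGG
SMAD2, coding exon 6 (chr18:45377684-45377713, minus strand): atccttttgttttagGCTCTCCAGCAGAAC
SEMA3E, coding exon 3 (chr7:83098604-83098633, minus strand): tatcttttattttagATACACTGGCCGAGT

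Most coding-exon peaks touched an exon without being centered on it. Coding bases made up 8.43% of all bases in the 605 iBRG1 peaks and 8.11% of all bases in the 573 i∆HSA peaks. The median peak held 124 coding bases in iBRG1 (upper quartile 178) and 120 in i∆HSA (upper quartile 177). The midpoint fell inside coding sequence in 78 iBRG1 peaks (12.9%, 10.5 to 15.8) and 62 i∆HSA peaks (10.8%, 8.53 to 13.6), and its median distance to the nearest coding base was 269 and 285 bp. The rule's name thus fits what the peaks touch rather than what they are centered on. When each peak was cut into bins of equal size from its edges to its center, the coding share ranged from 7.71% to 9.12% in iBRG1 and from 7.76% to 8.45% in i∆HSA, with no steady rise toward the center.

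**Figure D1:**
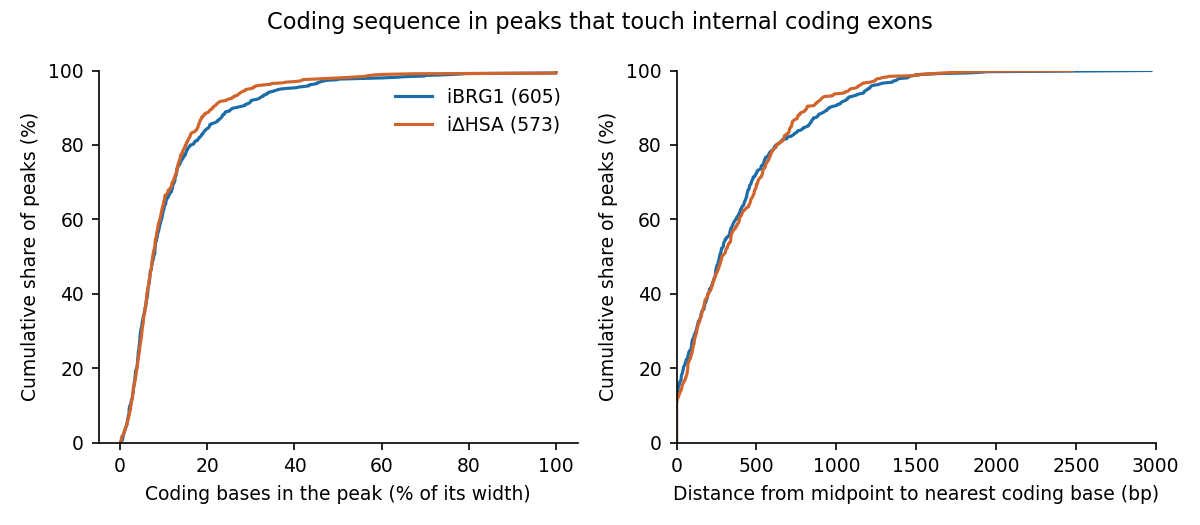
Cumulative share of the 605 iBRG1 and 573 i∆HSA coding-exon peaks (vertical axis, %) against the coding part of each peak as % of its width (left) and the distance in bp from its midpoint to the nearest coding base (right). Under 10% of the peak was coding for 62.5% of the iBRG1 set and 64.4% of the i∆HSA set, and the curves of the lists run close to each other.

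The exons touched were mostly internal exons, which the rule favors. The exon most covered had a median length of 129 bp in iBRG1 and 128 bp in i∆HSA. It was a middle coding exon of the gene's canonical transcript in 577 iBRG1 peaks (95.4%) and 541 i∆HSA peaks (94.4%). The rule largely sets this share, since it leaves out peaks that touch a UTR or lie near a start. Lengths and positions of all annotated coding exons were not computed for comparison. A whole coding segment lay inside 82.5% of the iBRG1 peaks and 80.6% of the i∆HSA peaks, and a single segment was touched by 84.8% and 83.4%. Peaks that touched 3 or more segments numbered 20 and 21. A peak end lay within 5 bp of a coding edge in 28 iBRG1 peaks (4.63%, 3.22 to 6.61) and 31 i∆HSA peaks (5.41%, 3.84 to 7.58), and 0 peaks of either list had both ends there. The highest-scoring of these were at FBXO47 in iBRG1 (score 29, start 2 bp inside the exon) and RNF115 in i∆HSA (score 40, end 2 bp from a coding edge), which were named after their values were seen.

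The peaks with the most coding bases mostly had low scores, as did most peaks of their lists. The median score of all peaks was 2 in iBRG1 and 4 in i∆HSA. An iBRG1 peak of 2997 bp lay wholly in coding exon 11 of ACAN, the gene of the cartilage proteoglycan aggrecan, with a score of 2. Scores are the authors' whole-number values per peak, on a scale that no source used here gives. At BPTF, a subunit of the NURF remodeler, an iBRG1 peak with a score of 1 held 2311 coding bases. At ZNF609 an i∆HSA peak with a score of 3 held 2341, and at CELSR3, an atypical cadherin, an i∆HSA peak of 567 bp with a score of 1 was wholly coding. RP1, a photoreceptor axoneme gene on chromosome 8, was the only gene where coding-exon peaks of both lists were wholly coding, with scores of 2 in iBRG1 and 11 in i∆HSA and midpoints 48 bp apart. At MAML1, a Notch coactivator, overlapping peaks held 1267 coding bases in iBRG1 and had a score of 3 in each list. An iBRG1 peak at FRMD4B with a score of 6 held 932 coding bases, and an i∆HSA peak at FAM221B with a score of 3 held 682. An i∆HSA peak at NUTM2A, with 700 coding bases and a score of 3, lies in a family of near-identical copies, so its placement is uncertain.

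Coding-exon peaks formed similar shares of both lists, 2.50% of iBRG1 peaks (2.31 to 2.70) and 2.26% of i∆HSA peaks (2.08 to 2.45), a difference of 0.24 percentage points (−0.03 to 0.51). The rule favors wide peaks, since a wide peak is more likely to reach an exon. Median widths were 1718 bp in iBRG1 and 1609 bp in i∆HSA, against 1227 and 1120 bp for intron peaks, which lie inside a protein-coding transcript more than 1 kb from any start and touch neither CDS nor UTR. Among iBRG1 peaks, 1.46% of those under 1000 bp wide were coding-exon peaks, and 3.40% of those of 2000 bp or more were. Comparisons with the 8307 iBRG1 and 8132 i∆HSA intron peaks are therefore also given by width.

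Scores of coding-exon peaks resembled those of their lists. The median score was 2 in iBRG1 (quartiles 1 and 5, highest 180) and 4 in i∆HSA (quartiles 2 and 6, highest 86). The study's methods name a minimum score of 5. Most peaks of both lists have a deposited score under 5, and whether the minimum is on the scale of these scores is not stated. A score of at least 5 was held by 165 iBRG1 peaks (27.3%, 23.9 to 31.0), beside 27.2% of the whole list, and by 222 i∆HSA peaks (38.7%, 34.8 to 42.8), beside 41.1% of the whole list. Against intron peaks of similar width the difference was negative in all 6 bands, with an interval that left out 0 in 3 of them. Under 1000 bp it was −1.50 points (−5.89 to 4.96) in iBRG1 and −5.34 points (−11.16 to 2.18) in i∆HSA. Among peaks of 1000 to under 2000 bp, 28.3% of coding-exon and 34.9% of intron peaks of iBRG1 had such a score, a difference of −6.59 points (−12.36 to −0.14). In i∆HSA the shares were 39.7% and 47.2%, a difference of −7.47 points (−13.87 to −0.74). Among peaks of 2000 bp or more the difference was −9.65 points (−15.77 to −3.11) in iBRG1 and −3.30 points (−10.42 to 3.80) in i∆HSA, the latter interval including 0. Against all other peaks of the list, 1 of the 6 intervals left out 0, that of i∆HSA peaks of 1000 to under 2000 bp (−7.40, −13.61 to −0.85).

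The strongest coding-exon peak of either list was at PGR, the gene of the progesterone receptor. Its iBRG1 peak (chr11:100961866-100962642, 777 bp) had a score of 180, the highest of all 24212 iBRG1 peaks, and covered all 117 bp of coding exon 3. No i∆HSA peak overlapped it. Next in iBRG1 came ACACA, LAMB4, NFYB and FBXO47, with scores of 60, 43, 36 and 29, and each of these had an overlapping i∆HSA peak, with scores of 60, 29, 37 and 29. ACACA encodes the acetyl-CoA carboxylase that commits carbon to fatty acid synthesis, LAMB4 a laminin beta chain, NFYB a subunit of the CCAAT-binding factor NF-Y, and FBXO47 an F-box protein. The ACACA peaks had midpoints 61 bp apart and centers in the intron, 610 and 671 bp from the exon. The NFYB peaks lay over coding exon 5, with the iBRG1 midpoint inside the exon and the i∆HSA midpoint 90 bp away. ENAM, which encodes the enamel protein enamelin, completed the pairs with the highest lower score, with 24 in iBRG1 and 28 in i∆HSA.

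The strongest i∆HSA peaks were less evenly matched. KCP, a secreted modulator of BMP signaling, had an i∆HSA peak with a score of 86 (chr7:128527492-128529662) and no overlapping iBRG1 peak. SMAD2, a signal transducer of TGF-beta, had scores of 75 in i∆HSA and 5 in iBRG1. SEMA3E, a guidance ligand, had 64 and 12, and LGR5, an R-spondin receptor and stem cell marker, had 62 and 3. The i∆HSA peak at SMAD2 was AT-rich, with 22.9% GC. Since the scale of the score is not stated, scores of the lists were set side by side and not tested.

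**Figure D2:**
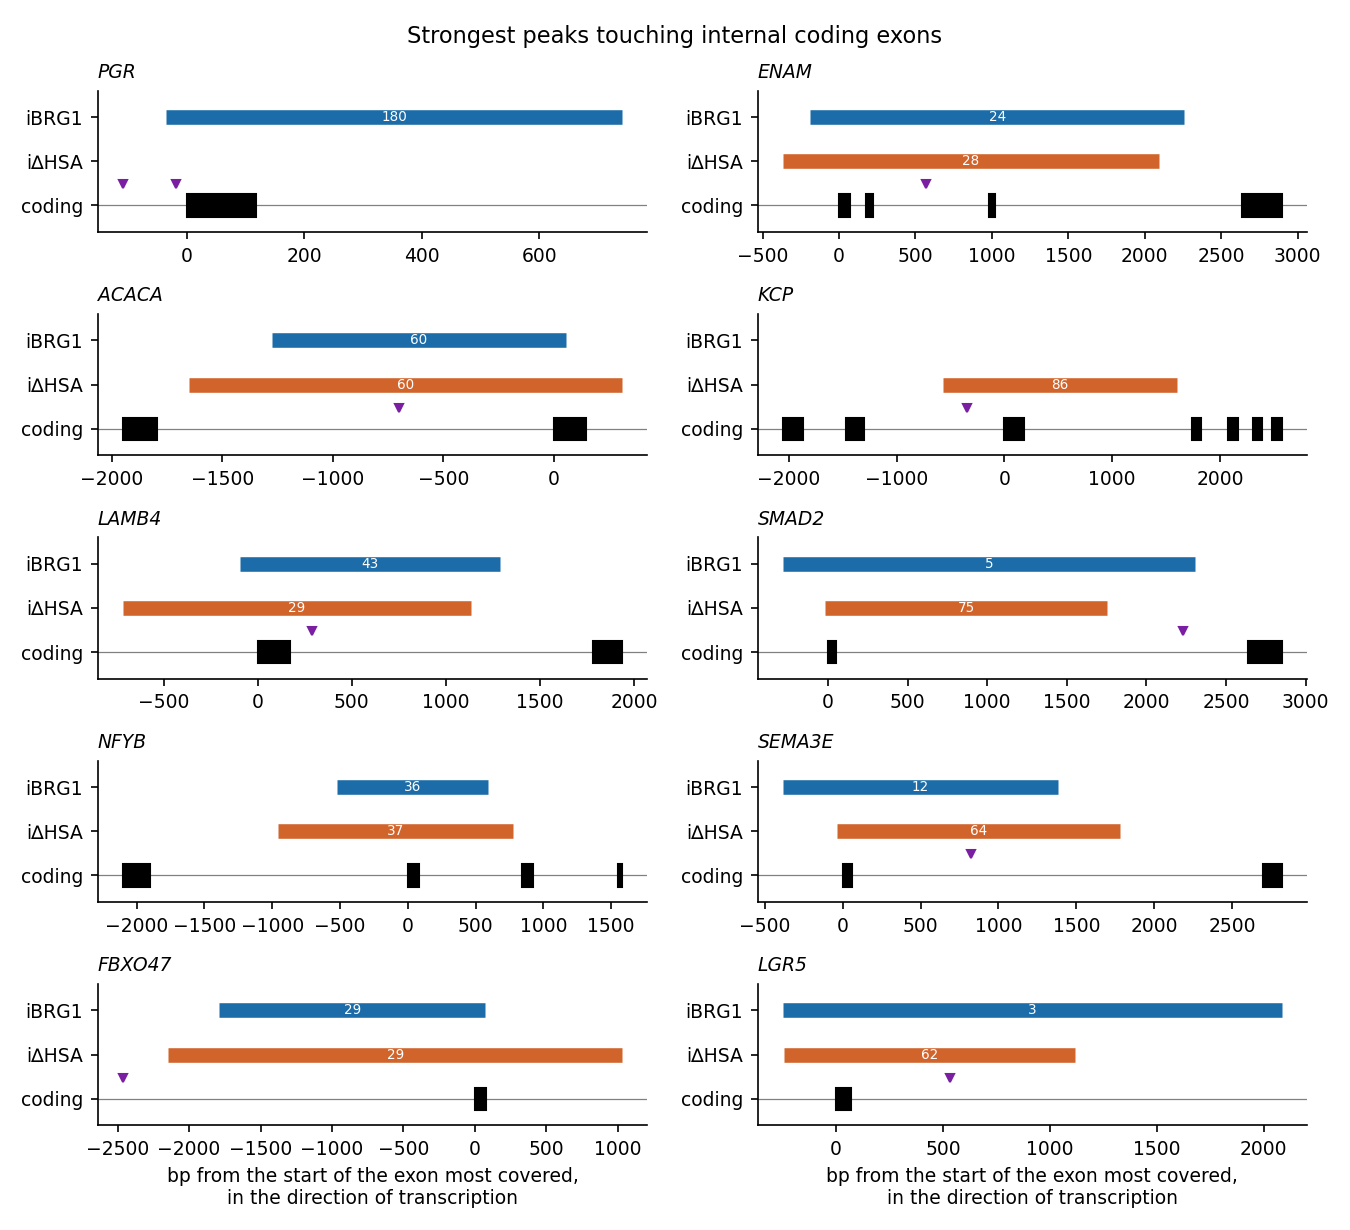
Peaks at 10 loci with the highest-scoring peaks or pairs, drawn in bp from the start of the exon most covered in the direction of transcription (horizontal axis, a separate scale per locus), with iBRG1 peaks in blue, i∆HSA peaks in orange, the authors' score printed in each bar, coding segments as black boxes and AP-1 sequences as triangles. Most bars reach well into introns, and PGR and KCP carry a peak of 1 list only.

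Overlap between the lists at coding exons was close to that of all peaks. An i∆HSA peak overlapped 129 of the 605 iBRG1 coding-exon peaks by at least 1 bp (21.3%, 18.2 to 24.8), where 20.5% of the whole iBRG1 list was overlapped. An iBRG1 peak overlapped 127 of the 573 i∆HSA coding-exon peaks (22.2%, 19.0 to 25.7), where the share in the whole i∆HSA list was 19.6%. Against intron peaks, of which 18.8% and 19.4% overlapped, the differences were 2.49 points (−0.70 to 6.03) in iBRG1 and 2.81 points (−0.52 to 6.49) in i∆HSA, both intervals including 0.

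Overlap rose with width in every set of peaks. Of iBRG1 coding-exon peaks, 7.35% of those under 1000 bp, 19.9% of those of 1000 to under 2000 bp and 30.5% of those of 2000 bp or more were overlapped. The whole iBRG1 list had 8.43%, 24.5% and 32.0% in these bands. The i∆HSA shares were 11.9%, 20.5% and 30.6%, beside 7.21%, 22.1% and 32.9% of the whole list. Among i∆HSA peaks of 2000 bp or more, coding-exon peaks were overlapped less often than intron peaks (37.9%), by −7.33 points (−13.61 to −0.40), but against all other peaks the difference was −2.37 points (−8.33 to 4.26). Under 1000 bp they were overlapped more often than intron peaks (7.33%), by 4.52 points (0.01 to 11.10), and than all other peaks, by 4.71 points (0.25 to 11.26). In iBRG1 all 3 bands gave intervals that included 0. None of these intervals was adjusted for the number of bands, contrasts and lists.

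**Figure D3:**
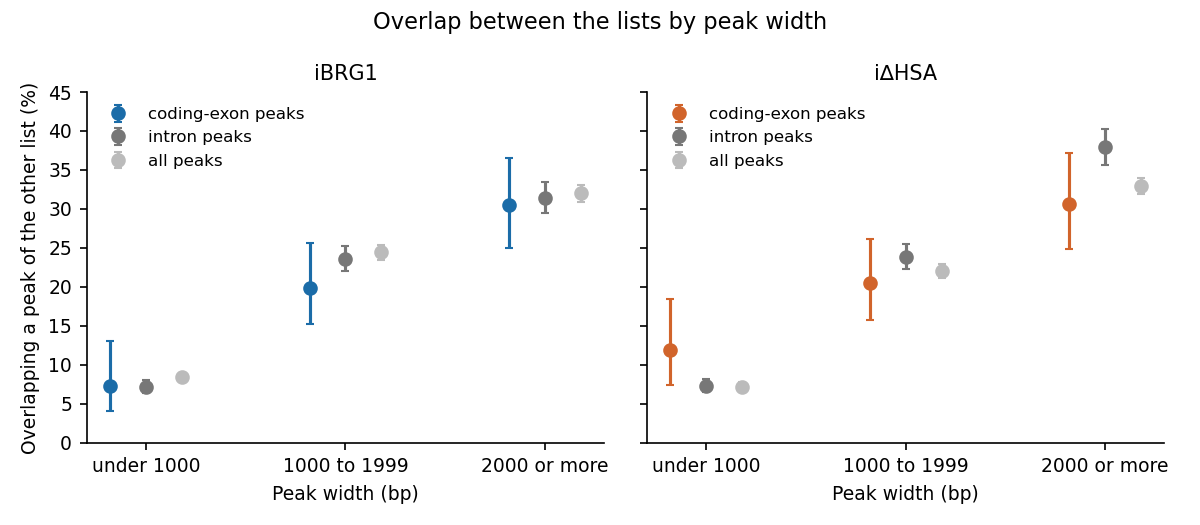
Share of peaks overlapping a peak of the other list (vertical axis, %) by peak width in bp, for coding-exon peaks, intron peaks and all peaks of iBRG1 (left) and i∆HSA (right), with 95% Wilson intervals. All sets rise together, and the i∆HSA coding-exon peaks of 2000 bp or more (30.6%) lie below the intron peaks (37.9%).

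Overlap rose with score as well. In iBRG1 coding-exon peaks it was 11.4% for scores under 5 and 70.0% (48.1 to 85.5) for scores of 20 or more, where the whole list had 12.5% and 73.2%. In i∆HSA it was 9.12% and 70.0% (54.6 to 81.9), where the whole list had 8.79% and 57.7%. Peaks centered on or near the exon overlapped less often in iBRG1. With the midpoint within 100 bp of coding sequence, 23 of 168 were overlapped (13.7%), and farther away 106 of 437 were (24.3%), a difference of −10.57 points (−16.66 to −3.46). The nearer peaks were narrower, with a median of 1085 bp against 1901 bp, and within each of the 3 width bands the interval included 0. In i∆HSA the shares were 17.4% and 23.8%, a difference of −6.42 points (−13.22 to 1.55).

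Of the 129 overlapped iBRG1 coding-exon peaks, 97 met a coding-exon peak of i∆HSA. In 95 of these pairs the peaks touched a common coding segment, which their overlap and the rule nearly fix, since most such peaks touch a single segment. Their midpoints lay a median of 377 bp apart. Median scores in these pairs were 7 in iBRG1 (quartiles 3 and 13) and 8 in i∆HSA (quartiles 5 and 20). The i∆HSA score was the higher in 50 pairs, the iBRG1 score in 40, and the scores were equal in 7. Spearman's rho between the scores across the 97 pairs was 0.42, given as a description, since paired peaks share a locus, its width and its sequence. Of the other 32 overlapped iBRG1 peaks, 24 met an i∆HSA peak that touched no CDS, and of the other 30 overlapped i∆HSA peaks, 24 likewise met an iBRG1 peak that touched none.

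**Figure D4:**
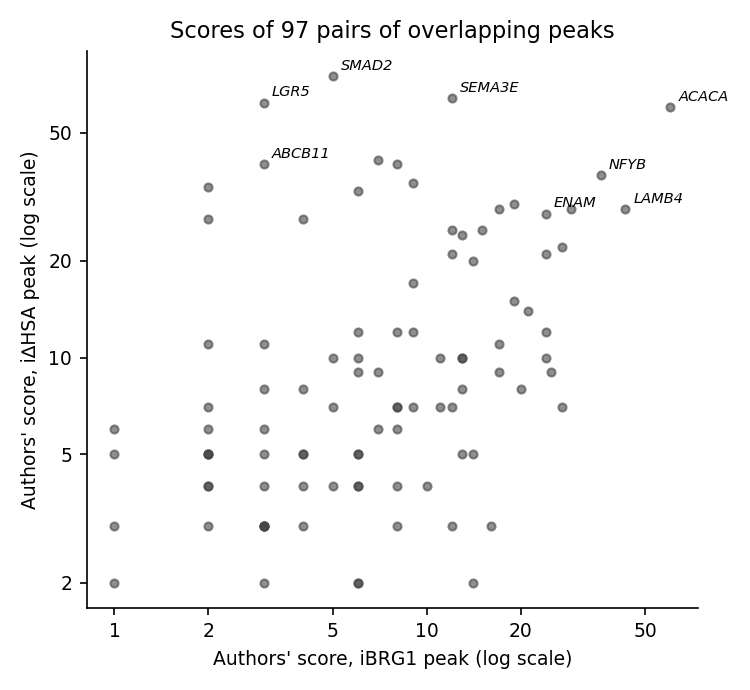
Authors' scores of the 97 pairs of overlapping coding-exon peaks, iBRG1 on the horizontal and i∆HSA on the vertical axis, both logarithmic, 1 point per pair with ties drawn on top of each other. ACACA, NFYB, LAMB4 and ENAM score high in both lists, while SMAD2, LGR5, SEMA3E and ABCB11 score higher in i∆HSA.

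Next, the sequence at the peaks was examined. AP-1, the Fos-Jun family whose site is TGACTCA or TGAGTCA (the same letters on opposite strands), was searched within 100 bp of each midpoint. It was present in 40 iBRG1 coding-exon peaks (6.61%, 4.89 to 8.88), where the whole list had 8.89%, and in 38 i∆HSA coding-exon peaks (6.63%, 4.87 to 8.97), where the whole list had 6.18%. In iBRG1 this was below the 10.0% of intron peaks by −3.42 points (−5.26 to −1.06). The difference was negative in all 3 width bands, with an interval that left out 0 in peaks of 2000 bp or more (−3.48, −5.70 to −0.03). In i∆HSA the coding-exon peaks differed from intron peaks (7.13%) by −0.50 points (−2.36 to 1.90). Between the lists, AP-1 was more frequent at intron peaks of iBRG1 than of i∆HSA by 2.90 points (2.04 to 3.75), and at coding-exon peaks the difference was −0.02 points (−2.92 to 2.85). The interval for the difference of these differences, −2.92 points, ran from −5.94 to 0.08 and included 0.

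Almost all AP-1 sequences in coding-exon peaks lay in introns. The iBRG1 peaks held 399 such sequences in their full width, of which 21 (5.26%) overlapped CDS, and the i∆HSA peaks held 309, of which 11 (3.56%) did. Coding bases made up 8.43% and 8.11% of the same peaks. Printed below are examples from the 5 highest-scoring peaks of each list, where NFYB, FBXO47 and SMAD2 held none, then that at ENAM, and lastly 3 coding examples from lower-scoring peaks, which were chosen after their values were seen. Each has 10 bases on either side, on the plus strand of GRCh37, with the AP-1 letters in capitals.

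PGR, intronic (chr11:100962612-100962638): aaaaacaaaaTGAGTCAaaattattta
ACACA, intronic (chr17:35537034-35537060): gaatcccaagTGACTCAtacataccta
LAMB4, intronic (chr7:107671121-107671147): gatataccatTGAGTCAtggaccagca
SEMA3E, intronic (chr7:83097781-83097807): aggaatgtgcTGACTCActccttggct
KCP, intronic (chr7:128529429-128529455): tagccccagcTGACTCAggtggtgtgg
ENAM, intronic (chr4:71497945-71497971): acctttcacaTGACTCAtatcccagat
EXOC1, coding (chr4:56759830-56759856): ttagtcaaaaTGAGTCAtcatgtgtgg
TXK, coding (chr4:48096163-48096189): accactgtccTGAGTCAttctttttta
MAML1, coding (chr5:179192616-179192642): gtaaccccagTGAGTCAtttcctctga

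The site at ACACA lay 90 bp from the iBRG1 midpoint and 29 bp from the i∆HSA midpoint, between peaks that both scored 60. At SEMA3E it lay 50 bp from the i∆HSA midpoint, and at KCP 865 bp. At PGR it began 15 bp upstream of exon 3, at the edge of the peak and 371 bp from its midpoint. The peaks over the coding examples scored 16 at EXOC1 (iBRG1), 8 and 7 at TXK (iBRG1 and i∆HSA) and 3 in both lists at MAML1. EXOC1 encodes an exocyst subunit and TXK a Tec-family kinase. A match describes the letters in the reference and does not show that a factor is bound.

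For the other motifs, every difference from intron peaks at the midpoint had an interval that included 0. The TEAD core CATTCC, searched on both strands like all motifs here, was within 100 bp of the midpoint in 12.1% of iBRG1 coding-exon peaks, with 12.2% in the whole list, and in 9.08% of i∆HSA coding-exon peaks, with 10.1% in the whole list. The SP/KLF letters GGGCGG, common in CpG-rich promoters, were present in 2.48% and 2.27%, beside 1.88% and 2.19% of intron peaks and 4.63% and 5.49% of all peaks. The ETS letters CCGGAAG were found in 0.165% and 0.698% of the iBRG1 and i∆HSA coding-exon peaks, beside 0.743% and 0.926% of all peaks, and the E-box CACGTG in 1.65% and 2.09%, beside 1.95% and 2.33%. The NRF1 letters GCGCATGC were found in 2 and 0 coding-exon peaks (0.392% and 0.461% of all peaks), the CRE TGACGTCA in 0 and 1 (0.116% and 0.173%), and the CTCF motif in 0 and 2 (0.145% and 0.382%).

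Median GC was 37.5% in iBRG1 (range 25.9 to 73.1) and 37.1% in i∆HSA (range 19.5 to 71.2). Peaks with under 25% GC numbered 0 in iBRG1, which allows a share of up to 0.631%, where the whole list had 0.888% and intron peaks 0.710%, a difference from intron peaks of −0.71 points (−0.92 to −0.06). In i∆HSA they numbered 10 (1.75%, 0.951 to 3.18), where the whole list had 4.64% and intron peaks 3.84%, a difference from intron peaks of −2.09 points (−3.00 to −0.60). Under 30% GC there were 23 iBRG1 and 51 i∆HSA peaks. The 51 i∆HSA peaks overlapped an iBRG1 peak in 4 cases (7.84%), against 23.6% of the 522 others, a difference of −15.72 points (−21.82 to −4.52). Their median score was the same, 4, and their median width was 1389 bp against 1637 bp. In iBRG1 the corresponding shares were 21.7% and 21.3%. The 30% limit was chosen after the values were seen. Overlap of all peaks or intron peaks under 30% GC was not computed, so the low i∆HSA share is not shown to be particular to coding-exon peaks.

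Coding-exon peaks were spread over many genes. They touched the CDS of 565 genes in iBRG1 and 531 in i∆HSA, together 948 of 16574 protein-coding genes that have coding bases able to meet the rule (5.72%). Both lists had a coding-exon peak in 148 genes, a share of 26.2% in iBRG1 and 27.9% in i∆HSA. In 98 of these the peaks overlapped, and in the other 50 they lay apart by a median of 17213 bp (1132 to 756953). Most genes had a single peak (523 of 565 and 491 of 531). LAMB4 had the most, 5, of which 4 were i∆HSA peaks with scores of 29, 2, 2 and 2 and 1 was the iBRG1 peak with a score of 43. FMNL2, a formin that elongates actin filaments, had 4 i∆HSA peaks with scores of 20, 8, 5 and 3 and 0 of iBRG1, although an iBRG1 peak outside the criteria, with a score of 7, overlapped the one that scored 5. ARMH3, the axonemal gene CFAP54, and USP34, a deubiquitinase, had 4 each.

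Long genes carried most of them. The median length of genes with a coding-exon peak was 93360 bp, against 32860 bp for all eligible genes. Among eligible genes under 10 kb, 0.214% had an iBRG1 and 0.122% an i∆HSA coding-exon peak, and among those of 200 kb or more, 8.87% and 8.59% did. Per Mb of eligible CDS, iBRG1 peaks numbered 3.96 in genes under 10 kb, 24.0 at 10 to 50 kb, 46.5 at 50 to 100 kb, 52.8 at 100 to 200 kb and 48.4 at 200 kb or more, so the density leveled off from 50 kb. The i∆HSA densities were 2.26, 22.9, 46.2, 45.5 and 48.8. Over all eligible CDS there were 36.1 iBRG1 and 34.2 i∆HSA peaks per Mb. The rule itself favors long genes, since a whole peak must clear UTRs and starts while eligible CDS was counted by base. How much of the rise with gene length follows from the rule was not tested.

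Among gene families, nuclear receptors, the ligand-regulated transcription factors, had a coding-exon peak in 8 of 41 eligible genes (19.5%, 10.2 to 34.0), against 5.72% of all eligible genes. In iBRG1 the scores were 180 at PGR, 14 at THRB (thyroid hormone receptor beta), 13 at NR1D2 (a circadian repressor), 9 at NR3C1 (the glucocorticoid receptor), 2 at NR1H4 (the bile acid receptor) and 1 at NR5A2. In i∆HSA they were 11 at NR2E1, 6 at ESR2 (estrogen receptor beta) and 2 at THRB. THRB was the only receptor with peaks of both lists, and they overlapped on coding exon 4. These genes had a median length of 77147 bp, and the density was 169 iBRG1 and 84.4 i∆HSA peaks per Mb of a small eligible CDS of 36 kb.

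ABC transporters, ATP-driven membrane pumps, had peaks in 9 of 43 genes (20.9%, 11.4 to 35.2), with a median gene length of 78740 bp and 73.2 iBRG1 and 62.8 i∆HSA peaks per Mb. ABCB11, the bile salt export pump, had an i∆HSA peak with a score of 40 and 24.8% GC over an iBRG1 peak with a score of 3, and ABCD2, a peroxisomal fatty acid transporter, had scores of 15 in iBRG1 and 25 in i∆HSA. Adhesion GPCRs had peaks in 6 of 31 genes (19.4%, 9.19 to 36.3), with a median gene length of 60706 bp. Their density was 23.0 iBRG1 peaks per Mb, below that of all genes, and 57.6 i∆HSA peaks per Mb. ADGRG6, which acts in Schwann cell myelination, had an i∆HSA peak with a score of 56 and no iBRG1 overlap, and ADGRG2 scored 13 in iBRG1 and 8 in i∆HSA. Axonemal dyneins, the motors of cilia, had peaks in 6 of 13 genes (46.2%, 23.2 to 70.9). Their genes are long, with a median of 303135 bp, and their density of 42.1 iBRG1 and 35.1 i∆HSA peaks per Mb was near that of all genes. At DNAH10 an i∆HSA peak with a score of 27 met an iBRG1 peak with a score of 1. With a score of at least 5, 1 axonemal dynein gene per list kept a coding-exon peak.

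The matrix and adhesion genes lay closer to the share of all genes. Laminins and integrins had peaks in 5 of 41 genes (12.2%, 5.32 to 25.5), led by LAMB4, with LAMA3 at a score of 10 and ITGB8 at 6 in iBRG1. Collagens had peaks in 5 of 44 genes (11.4%, 4.95 to 24.0), led in i∆HSA by COL17A1 (23), the hemidesmosome collagen, and COL5A2 (12). The coding-exon peaks of iBRG1 at collagens scored at most 2, and the i∆HSA peak at COL5A2 met an iBRG1 peak outside the criteria with a score of 15. Semaphorins, plexins and neuropilins had peaks in 4 of 30 genes (13.3%), SEMA3E and SEMA3A (8 in iBRG1) among them. Cadherins and protocadherins had 3 of 84 (3.57%), with CDH15 at 25 in i∆HSA. Solute carriers had 17 of 298 (5.70%), myosins 3 of 39, ADAM and ADAMTS proteases 2 of 38, and receptor tyrosine kinases 2 of 57, the last with a score of 3 each at ERBB4 and ROS1.

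Of the SWI/SNF subunits other than SMARCA4, 3 of 27 had a coding-exon peak (11.1%, 3.85 to 28.1), all of iBRG1 and all weak. SMARCC1, a core scaffold subunit, scored 3, BICRAL, of the non-canonical complex, scored 3, and BRD7, of the PBAF complex, scored 2. An i∆HSA peak with a score of 6 covered the same exon of SMARCC1 but failed the UTR or start criterion, so the absence of i∆HSA here rests in part on the criteria. Zinc finger genes had peaks in 5 of 516 genes (0.969%, 0.415 to 2.25) and olfactory receptors in 0 of 174, which allows a share of up to 2.16%. The rule reaches little of the olfactory receptors, since 174 of their 399 genes had coding bases able to meet it. Zinc finger genes had a median length of 26157 bp, and whether the criteria also lower their share was not tested. The study displayed CUT&RUN signal at SRPX2 and MYOF, and chromatin accessibility at CRYAB, CSF1, SPARC and SRPX2. Of these 5 genes, 4 were eligible and 0 had a coding-exon peak, which allows a share of up to 49.0%.

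**Figure D5:**
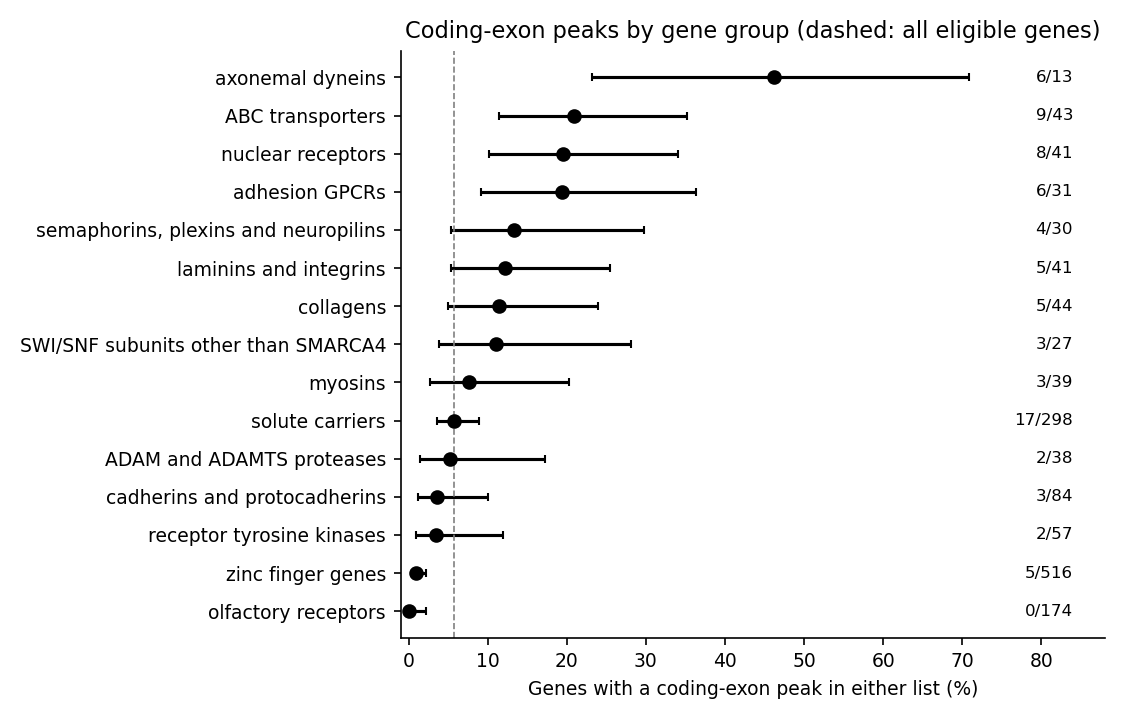
Share of eligible genes with a coding-exon peak in either list (horizontal axis, %) by gene family, with 95% Wilson intervals and the number of genes with a peak over the number eligible at the right. The dashed line marks all eligible genes (5.72%), with axonemal dyneins at 46.2% farthest above it and zinc finger and olfactory receptor genes below it.

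By chromosome, the lists divided their coding-exon peaks alike apart from chromosomes 16 and X. On chromosome X there were 11 coding-exon peaks in iBRG1 (1.82%) and 23 in i∆HSA (4.01%), with an interval of the difference from 0.26 to 4.29 points. On chromosome 16 there were 7 (1.16%) and 18 (3.14%), with an interval from 0.32 to 3.85 points. The other 22 intervals included 0, and none was adjusted for the number of chromosomes. The whole lists also had more i∆HSA than iBRG1 peaks on both. Of 24212 iBRG1 and 25371 i∆HSA peaks, 628 and 1010 lay on chromosome X, and 709 and 859 on chromosome 16. As a share of all peaks on the chromosome, coding-exon peaks were 1.75% in iBRG1 and 2.28% in i∆HSA on chromosome X, and 0.987% and 2.10% on chromosome 16.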

How the data were processed

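Anti-V5 CUT&RUN peaks of iBRG1 and i∆HSA were analyzed. Per the study's methods and the submitters' processing notes, the authors used Cutadapt for trimming, Bowtie2 for alignment, Picard for duplicate removal and MACS2 2.2 for peak calling. They discarded peaks also found in negative controls and set a minimum score of 5. The deposited lists hold, per construct, peak positions and a score, the authors' whole-number value on an unstated scale, whether or not from pooled replicates is not stated. Scores under 5 are present, and each list holds more peaks than the paper reported. Whether the authors' minimum is on the scale of the deposited scores is not stated. The build was hg19 per the labels, and 0 peaks ended beyond a GRCh37 chromosome.

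Peaks were annotated with GENCODE release 44 mapped to GRCh37. UTRs and starts of all transcripts counted, including those subject to nonsense-mediated decay. Of 2991 iBRG1 and 3128 i∆HSA peaks that touched CDS, 903 and 863 touched no UTR, and 605 and 573 also lay over 1 kb from starts. No peak was lost to SMARCA4 itself. Intervals were 95% Wilson and Newcombe intervals. The difference of 2 differences used the same method of combining limits. Sequence came from GRCh37. Python 3.11.15, numpy 2.4.6, pandas 2.3.3, scipy 1.17.1, pysam 0.24.0 and matplotlib 3.10.9 were used, and the scripts were tested on simulated data.

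The criteria, motifs and gene families were chosen with earlier results of these data known, and the bands of GC, gene length and midpoint distance after the values were seen. Named peaks were the 5 highest scores per list, the 5 pairs with the highest lower score, the 5 genes with most peaks (a tie with VPS13C broken by name), the 5 peaks per list with most coding bases, and up to 2 per family by score. The alternatives changed the distance to starts, the transcripts used, the coding bases, the score, GC, overlap, motif window and edge distance. 1 sequence is not reported here.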

Additional observations from a re-analysis of the deposited data

How the results depend on the processing

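The number of coding-exon peaks depended most on what counted as exonic and on the score. It was 78 in iBRG1 and 62 in i∆HSA with the midpoint inside CDS, 399 and 352 with at least 100 coding bases, and 165 and 222 with a score of at least 5. With a score of at least the list median, 297 i∆HSA peaks remained. The overlapped share was 6.41% and 9.68% with the midpoint inside CDS, 47.9% and 42.8% with a score of at least 5, 27.3% and 35.7% with a score of at least the median, 14.0% and 14.3% when 50% of both peaks had to overlap, and 16.0% and 16.9% when the partner had to be a coding-exon peak. When 50% had to overlap, other peaks had 12.2% in iBRG1 and 11.7% in i∆HSA. The differences were 1.80 points (−0.77 to 4.83) and 2.64 points (−0.02 to 5.77). Shares of all peaks at these score limits were not computed, so those values are not shown to be particular to coding-exon peaks. Changing the distance to starts, the transcripts used for starts or UTRs, and the GC minimum kept both counts within 1.5 times and both shares within their intervals.

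The AP-1 difference from intron peaks in iBRG1 was −5.99 points (−8.80 to −2.76) with 250 bp on each side. Over the whole peak, where width enters, AP-1 differences were 2.71 points in iBRG1 (−1.35 to 6.84) and 9.67 in i∆HSA, and TEAD differences were 8.94 and 13.50, each opposite in sign to its value within 100 bp of the midpoint. With 250 bp on each side AP-1 in i∆HSA (0.74) and TEAD (1.14 and 0.60) were already positive, with intervals that included 0. Peaks with an end at a coding edge numbered 14 and 17 within 2 bp and 74 and 77 within 20 bp. Genes with a coding-exon peak of score at least 5 numbered 161 in iBRG1 and 216 in i∆HSA, and the weak SWI/SNF, myosin and receptor tyrosine kinase peaks were lost there. Axonemal dynein genes fell from 5 to 1 in iBRG1 and from 3 to 1 in i∆HSA, and ABC transporter genes from 6 to 1 and from 6 to 3. Nuclear receptor genes fell from 6 to 4 and from 3 to 2. Adhesion GPCR genes stayed at 2 in iBRG1 and fell from 5 to 2 in i∆HSA.

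No paired analysis was possible because the lists carry no replicate columns, and for the same reason no fit without a replicate exists. The depth is unknown, so a missing peak is not evidence that binding was absent.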

Other observations

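SMARCA4, whose coding sequence is also on the transgene, carried 4 peaks in each list, none of which met the other criteria. An end lay within 5 bp of a coding edge in 2 of the 4 iBRG1 peaks and 3 of the 4 i∆HSA peaks, against 4.63% and 5.41% of coding-exon peaks elsewhere.

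Among pairs outside the naming rule, POTEJ (scores of 16 in iBRG1 and 3 in i∆HSA) and ANKRD36C (11 and 7) belong to families of near-identical copies, and the gene a peak belongs to is uncertain there. In i∆HSA, coding-exon peaks at BCAS3 (35) and RNF115 (40), each overlapping a weaker iBRG1 peak, held AP-1 letters in an intron, and the peak at BCAS3 also held them in coding sequence. These genes were chosen after their values were seen.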
